A study of Arabidopsis thaliana with 4 samples.

Results

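Transcripts of 173 of the 32548 genes in the table were near silent in wild-type Arabidopsis thaliana seedlings and present in bdt1 seedlings. A gene was a member if its mean level in the wild-type libraries was under 5, if both bdt1 libraries held at least 5, and if the lower bdt1 level was at least 2 times the higher wild-type level. Levels are the authors' normalised read counts, scaled to a common library size. The thresholds were met by 181 genes, and 8 of them, BGLU24 and AT5G39110 among them, were left out by name. The members were chosen by the values in all 4 libraries, so their difference between genotypes is given as a description and was not tested.

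RNA came from whole seedlings of the Col-0 background, 10 days old, raised on Murashige and Skoog plates at 22 °C under days of 16 h light and nights of 8 h. Wild type and the mutant bdt1 had 2 biological replicates each. One source label spells the mutant btl1, which was taken as the same line. The labels give neither the kind of mutation nor how many plants went into a library, so p-values measure the spread between these libraries.

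As background, many plant genes are kept silent in tissues where they are not used. Polycomb proteins place the histone mark H3K27me3 on such genes, and reader proteins with a bromo-adjacent homology (BAH) domain bind this mark and help to hold transcription down. BDT1 is known as a BAH-domain protein that works with PHD-finger proteins and the phosphatase CPL2. DNA methylation silences other genes and most transposons. Genes of pollen, seeds and flowers, and many genes of defence or of single cell types, are among those that seedling tissue keeps off.

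The libraries held 22914893 to 27435729 reads, recovered from the deposited values. The symbol BDT1 is not in the annotation, and background knowledge ties it to AT4G11560. Its level was 1140 and 1120 in wild type and 313 and 324 in bdt1, a log2 change of -1.82 with an SE of 0.08 (limma adjusted p = 3.9e-05). All 7 leaf and all 13 root markers checked were above 0, as the label of whole seedlings would have it. RNA of a whole seedling does not tell apart more cells that express a gene and more RNA in each such cell.

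The members outnumbered the genes that met the same rule in the other direction. Of 11496 genes with a wild-type mean under 5, 1.57% met the thresholds in bdt1. With the genotypes exchanged, 39 of 11101 genes did, or 0.351%. The members also reached further. Their highest mean was 89.3 in bdt1, against 24.0 in wild type for the exchanged rule, and 22 members against 2 genes had a mean of at least 20. A lower value at least 4 times the higher value of the other genotype was found for 74 members and for 4 genes of the exchanged rule. No read in either library of the low genotype was found for 19 members and for 0 genes of the exchanged rule. The 5 highest genes of the exchanged rule were the non-coding RNA AT2G08735, the glutamate dehydrogenase gene GDH3, AT2G32200, AT5G15360 and the small nucleolar RNA U60.2F, with wild-type means of 24.0, 23.3, 17.4, 15.3 and 15.2.

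**Figure D1:**
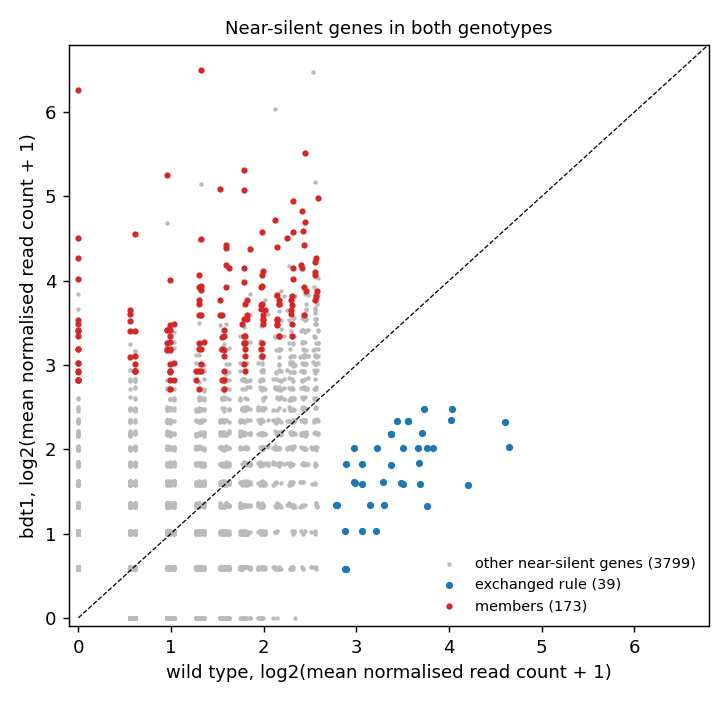
Mean level of each near-silent gene in wild type (x axis) and bdt1 (y axis), both as log2(mean normalised read count + 1). Points are genes, the dashed line marks equal levels, and genes at 0 in every library are not drawn. The 173 members (red) reach a bdt1 mean of 89.3, while the 39 genes of the exchanged rule (blue) reach a wild-type mean of 24.0. The grey points include the 8 genes left out by name.

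Most members remained low transcripts. The member levels ran from 5.28 to 88.5 with a median of 9.53 in bdt1 replicate 1, and from 5.83 to 90.1 with a median of 10.8 in bdt1 replicate 2. In wild type they ran from 0 to 7.34 with a median of 2.12 in replicate 1 and from 0 to 7.49 with a median of 1.82 in replicate 2. The median member was thus carried by 21 reads over both bdt1 libraries, and 77 members had a bdt1 mean under 10. The bdt1 libraries were within 1.5-fold of each other for 137 members and more than 2-fold apart for 10. Wild type held 0 reads for 19 members, 1 to 3 reads for 56 and more for 98. The 10 highest members held 19.3% of the summed bdt1 level.

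AT2G41470 was the highest member. It encodes an agamous-like protein of the MADS-box family, the transcription factor family that includes the floral organ identity genes, and spans bases 17289952 to 17293749 of chromosome 2 (TAIR10.1, minus strand). It had 2 and 1 reads in wild type but 84 and 92 in bdt1. Both bdt1 libraries stood far above both wild-type libraries and close to each other. Corrected for library size, the ratio was 60.6-fold, with an exact binomial 95% interval of 20.4 to 297. Intervals and floors here cover counting error only, since reads of amplified libraries are not independent molecules.

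The second, AT3G44006, encodes an uncharacterised protein and lies on chromosome 3. No read was counted in wild type, against 71 and 78 reads in bdt1. Set against a floor of 3 reads over the wild-type group, the level was at least 51.3-fold higher in bdt1, with the bdt1 reads taken as observed. Per kilobase of exon AT3G44006 was the higher of the pair, at 107 normalised reads against 60.9 for AT2G41470. The highest members per kilobase were the short loci AT2G15029 and AT1G07393, at 119 and 115, from 102 and 53 exon bases. Both have fewer exon bases than a read of 150 bases, so their levels per kilobase are uncertain. AT2G15029 also overlaps the transcribed pseudogene AT2G15030 on the other strand.

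The promoters shown next are those of AT2G41470, of AT3G23955, an F-box gene with no wild-type read, and of AGL6, whose neighbour is described below. Each run is the 200 bases before the annotated start, 5′ to 3′ on the gene's strand, read from the TAIR10.1 genome of RefSeq, and overlaps no other annotated locus. Capitals mark the TATA box letters TATAAA and the CArG core, searched as CC and GG with any 6 bases between them. The CArG box that MADS-box proteins are known to bind has A or T at those 6 positions. Neither marked CArG core meets it in full, and binding was not tested. The AGL6 run held none of the letters searched.
AT2G41470: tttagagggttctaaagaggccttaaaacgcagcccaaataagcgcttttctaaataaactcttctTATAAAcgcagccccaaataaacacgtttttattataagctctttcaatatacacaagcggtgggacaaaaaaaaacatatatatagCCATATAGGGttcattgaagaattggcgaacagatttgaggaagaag
AT3G23955: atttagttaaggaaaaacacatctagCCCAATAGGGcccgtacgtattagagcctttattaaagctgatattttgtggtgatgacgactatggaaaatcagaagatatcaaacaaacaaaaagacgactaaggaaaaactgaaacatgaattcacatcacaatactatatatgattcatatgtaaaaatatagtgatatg
AGL6: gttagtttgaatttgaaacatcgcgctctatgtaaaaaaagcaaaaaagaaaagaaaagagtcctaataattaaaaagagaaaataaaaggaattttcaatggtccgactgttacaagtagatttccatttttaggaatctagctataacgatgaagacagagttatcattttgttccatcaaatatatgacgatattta

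Over windows from 250 bases before to 50 after the start, searched on both strands, the CArG core was in 16.8% of the members, 22.3% of the other near-silent genes and 22.1% of all genes. The telobox AAACCCTA, a letter run known at many Polycomb targets, was in 3.47%, 7.43% and 6.19%. GAGAGAGA, the GA repeat, was in 8.67%, 6.49% and 7.87%. The G-box CACGTG, known from light and abscisic acid responses, was in 11% of members, 4.33% of the other near-silent genes and 7.11% of all genes. W-box letters were in 9.25%, 12.8% and 13.8% as TTGACC and in 24.9%, 20.7% and 21.4% as TTGACT. The TATA box letters were in 53.2%, 49.1% and 50.6%. These shares describe letters in a window, and windows of neighbouring genes can overlap.

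Next in level was AT3G47030, which encodes an F-box protein, the part of a ubiquitin ligase that picks the target. It had 5 and 4 reads in wild type and 51 and 37 in bdt1, a ratio of 10.1-fold. AT5G49200 encodes a protein with WD-40 repeats and a zinc finger (ZFWD4). Its reads were 2 and 3 in wild type and 41 and 35 in bdt1, or 15.7-fold. MEE65, annotated as a Brf1-like protein that binds the TATA-binding protein, had 0 and 2 wild-type reads and 33 and 40 bdt1 reads (37.7-fold, exact binomial 95% interval 10.1 to 317). MEE65 overlaps RPI2 on the other strand, whose mean level was 1030 in wild type and 1450 in bdt1. Strandedness of the counting is not given in the sources used here, so reads of the overlapping pair could not be assigned apart.

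The glycine-rich protein gene AT1G04660 had 0 and 4 reads in wild type and 37 and 28 in bdt1. AT2G33420, of unknown function (DUF810), had 2 and 3 against 23 and 42. In both, the lower bdt1 library was well above the higher wild-type library. AT3G32920, a P-loop nucleoside triphosphatase gene, had 7 and 3 reads in wild type and 34 and 26 in bdt1. It was also the member nearest to the wild-type ceiling. The non-coding RNA AT3G05945 had 5 and 3 against 29 and 30 reads, and its bdt1 libraries were the closest of these. AT5G49305, an importin alpha subunit gene of the nuclear import machinery, had 2 and 7 against 22 and 32.

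CLE5 encodes a small secreted peptide of the CLAVATA3 family, whose members act as signals between cells. It had 1 and 6 reads in wild type and 22 and 28 in bdt1. AT4G24420, an RNA-binding protein gene, had 5 and 4 against 28 and 21. These complete the 12 members with the highest bdt1 mean, and in none of them did the genotypes overlap. The rule fixes this, and both bdt1 values were above both wild-type values in 25.2% of all tested genes.

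**Figure D2:**
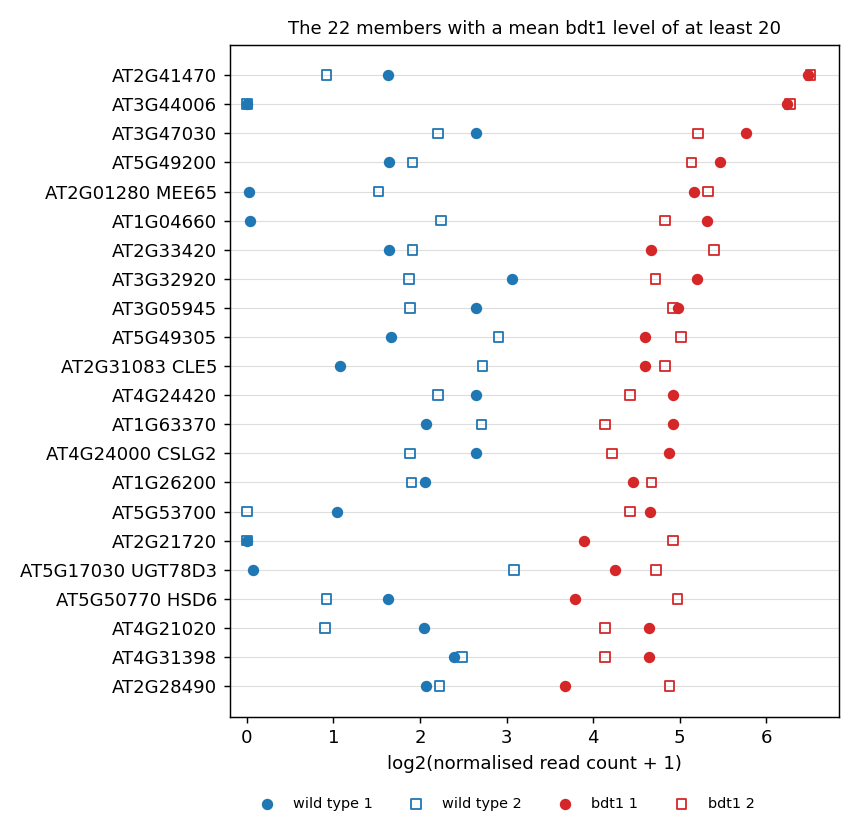
Level of the 22 members with a bdt1 mean of at least 20 in each library, on the scale log2(normalised read count + 1). Circles are replicate 1 and squares replicate 2, with wild type in blue and bdt1 in red. AT2G41470 and AT3G44006 stand highest, at 88.5 and 90.1 and at 74.8 and 76.4 in the bdt1 libraries.

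The 19 members without a wild-type read ranged from the high AT3G44006 to loci with 12 bdt1 reads over both libraries. AT2G21720, with a DUF639 domain, had 13 and 30 reads in bdt1, at least 14.8-fold above the floor. AT5G33390, a glycine-rich protein gene, had 21 and 15 (at least 12.4-fold), and AT3G23955 had 14 and 16 (at least 10.3-fold). The other 15 were at least 4.13-fold to at least 7.23-fold above the floor. Among them were the cysteine proteinase gene AT3G49340 with 9 and 12 reads, the defensin-like gene AT2G36255 with 13 and 7, and AT3G29060, which encodes a transporter-like EXS protein, with 6 and 13. AT4G26380 and AT1G69150, both with a C1 domain, had 9 and 10 and 9 and 9 reads. AT4G05497 had 7 and 9, AT2G20620 had 8 and 8, and AT5G36100 and AT5G62330 had 7 and 7 each. The rest were lower still. ATCHX8, a cation exchanger gene, had 6 and 7. AT3G49150, another F-box gene, had 5 and 8, while AT5G16235, AT2G42560 and AT3G60270 had 5 and 7 each and MIR165a had 6 and 6.

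Members near a threshold show how the boundaries fall. Inside the wild-type ceiling, AT3G05035 and AT1G64540 had wild-type means of 4.961 and 4.924. Their reads were 6 and 4 against 14 and 13, and 5 and 5 against 19 and 17. Just outside it were scpl16 and AT4G03450 at 5.286 each and NDB3 at 5.362. Of the members, AT1G15620, AT1G50770 and AT2G17590 had the lowest bdt1 value, 5.28, from 5 and 6 reads each against 2 and 2, 1 and 1, and 1 and 2 in wild type. The nearest genes outside, AT1G13607, AT1G06207 and AT1G75600, had 4.89. For the 2-fold requirement AT3G58860, AT4G37553 and GRP20 were nearest inside at 2.0, 2.01 and 2.01 times, with reads of 3 and 2 against 6 and 7, 4 and 3 against 8 and 10, and 5 and 5 against 10 and 16. PLL3, AT3G55580 and AT2G34224 were nearest outside at 1.93, 1.93 and 1.92 times.

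By the words of their annotation the members fell into many classes, with no class holding most of them. Transporters were 8.67% of members and 2.64% of the 3972 near-silent genes with a value above 0, which include the members. Small secreted or cysteine-rich proteins were 9.25% and 2.04%, and other transcription factors 7.51% and 2.72%. Lower shares of the members went to non-coding RNAs (10.4% and 26.3%), unknown function (11.6% and 15.9%) and no class (23.1% and 36.5%). The other classes had a higher share of the members, and the shares were not tested. Protein-coding genes were 89.6% of the members, 73.0% of the 3799 other near-silent genes with a value above 0 and 84.3% of all genes. Their median exon length was 1519 bases, against 1066 and 1552. The rule's minimum is in reads and not per length.

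**Figure D3:**
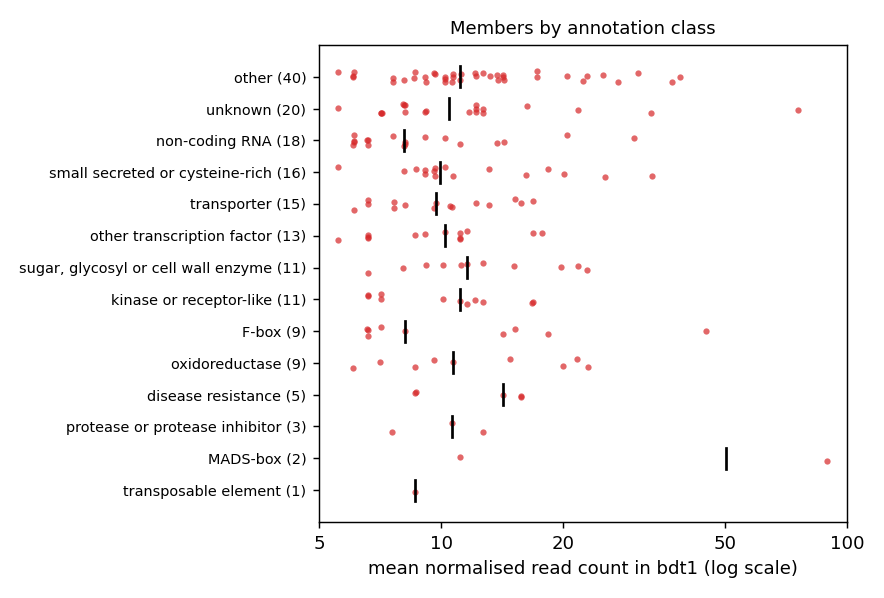
Mean normalised read count in bdt1 of each member (points, log axis) by annotation class, with the number of members in brackets and the median as a black bar. Classes overlap over most of their range, and single genes, AT2G41470 at 89.3 and AT3G44006 at 75.6, stand above their classes.

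Of transcription factors, 2 members were of the MADS-box family and 13 of others. AGL6, a MADS-box gene known for its part in flower development and flowering time, had 0 and 4 reads in wild type and 9 and 13 in bdt1. It is not among the floral genes that the rule names, and it was kept. MYB39, known as a regulator of suberin in the root endodermis, had 5 and 3 against 20 and 13. HB21, a homeobox gene known from dormant axillary buds, had 5 and 1 against 10 and 13. MYB19 had 4 and 6 against 16 and 19, the highest of these by level, and WRKY58 had 1 and 3 against 9 and 13. WRKY10, known from the endosperm and from the control of seed size, had 1 and 0 reads in wild type and 7 and 6 in bdt1. WRKY genes were 3 of the members and 4 of the 3799 other near-silent genes with a value above 0.

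Signalling genes took 11 places as kinases or receptor-like proteins. PRK4, a receptor kinase of pollen tubes, had 2 and 3 reads in wild type and 19 and 14 in bdt1. It overlaps AT3G20200 on the same strand, a gene with means of 194 and 256 in wild type and bdt1. RLP39 had 2 and 7 against 16 and 17 reads, and RLP40 had 3 and 5 against 10 and 13. Both encode receptor-like proteins without a kinase domain, they lie 3 loci apart on chromosome 3, and RLP40 shares 96.2% identity over 2005 bases with RLP42, whose mean was 164 in wild type and 215 in bdt1. AT5G41730, a kinase gene, had 3 and 5 against 11 and 14, and the cysteine-rich receptor kinase gene CRK37 had 2 and 4 against 9 and 15. The class median in bdt1 was 11.1.

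Small secreted or cysteine-rich proteins numbered 16. After AT1G04660 and CLE5, the highest was the cupin gene AT2G28490, with 3 and 4 reads in wild type and 11 and 29 in bdt1, a pair of bdt1 libraries that differed more than 2-fold. PROPEP2, the precursor of a peptide that alarms the immune system, had 0 and 2 against 9 and 10. CLE1 had 4 and 3 against 9 and 9. Proteins with a C1 domain made up 6 members, beside 24 of the 3799 other near-silent genes. Of disease resistance genes, 5 were members, and 3 of these carry the TIR-NBS label. AT5G49140 had 3 and 3 against 13 and 18 reads, AT3G51560 had 4 and 6 against 13 and 18, AT1G58390 had 1 and 2 against 13 and 15, and AT5G18350 had 1 and 1 against 10 and 7.

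Transporters gave 15 members, all at a bdt1 mean of 16.8 or less. AT5G19700, of the MATE efflux family, had 4 and 0 reads in wild type and 17 and 16 in bdt1. CHX18, a cation and proton exchanger gene, had 1 and 2 against 16 and 15, AT5G46040 had 5 and 3 against 14 and 16, and AT5G26690 had 4 and 4 against 8 and 18. KCO2, a potassium channel gene, had 0 and 1 against 5 and 16, so that its bdt1 libraries lay furthest apart, 2.92-fold. AT5G46040 and AT5G26690 overlap expressed loci on the other strand.

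Several transporters and other members are known from pollen. SPIK, the inward potassium channel of pollen, had 2 and 2 reads in wild type and 6 and 7 in bdt1. STP6, a sugar transporter of pollen, had 1 and 0 against 9 and 6. RABA4D, a small GTPase of growing pollen tubes, had 4 and 4 against 10 and 14, and the pectate lyase gene AT59 had 2 and 2 against 11 and 7. None of the 12 pollen and sperm markers was a member or passed the limma test over all genes (0 of 6 tested at an unadjusted p under 0.05, and 0 with edgeR). DUO1 and GEX2 were at 0 in every library. The summed level of the 12 was 4494 to 4692 in wild type and 4451 to 4523 in bdt1, most of it from TUB9. Of the 6 tested, 5 had a positive log2 change (median 0.58), beside 50.7% of all genes tested, among them HAP2 with 20.1 and 19.2 in wild type and 31.6 and 33.3 in bdt1, and GEX1 with 33.8 and 34.9 against 43.3 and 53.9. The part of pollen-type RNA in the members' levels was not tested.

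Genes annotated as late embryogenesis abundant, proteins that protect drying seeds, gave 4 members, beside 17 of the 3799 other near-silent genes. AT4G21020 had 3 and 1 reads in wild type and 23 and 17 in bdt1. AtLEA4-1 had 2 and 3 against 15 and 6, AT1G72100 had 0 and 2 against 7 and 10, and AT2G42560 is among the members without a wild-type read. Of the 8 seed markers, storage proteins and oleosins among them, 1 passed the limma test. All 8 had a positive log2 change (median 1.35), and 4 were higher at an unadjusted p under 0.05 with limma and 4 with edgeR. Of all 23256 tested genes, 2003 and 1958 were higher at that cut, and limma called 280 higher. Their summed level was 60.34 to 140.6 in wild type and 299.2 to 319.2 in bdt1, most of it from the cruciferin genes CRA1 and CRC. CRC had levels of 34.5 and 4.15 in wild type and 95.5 and 64.5 in bdt1 (limma adjusted p = 0.14), and the 6 markers beside CRA1 and CRC had limma adjusted p from 0.15 to 0.91. CRA1 had 85.2 and 42.5 against 166 and 204 and rose by 1.59 (log2; SE 0.30, limma adjusted p = 0.037). Without wild-type replicate 2 CRA1 was not called (limma adjusted p = 0.057). The part of seed-type RNA in the members' levels was not tested. Of the other marker lists, tapetum and anther genes summed to 206.4 to 215.7 in wild type and 248.6 to 248.7 in bdt1, with 5 of 6 tested at a positive log2 change (median 0.46). Root genes summed to 1243 to 1358 and 1468 to 1508, with 10 of 13 positive (median 0.24). Female gametophyte and endosperm genes summed to 58.17 to 59.66 and 57.15 to 83.34, with 4 of 5 positive (median 0.40). Of their defining genes, the anther gene A9 and the egg cell genes EC1.2 and EC1.3 were at 0 throughout. No gene of these tapetum, root and female lists was called with limma or edgeR. At an unadjusted p under 0.05, limma gave 1 root gene and edgeR 3, and both gave 0 in the tapetum and female lists. The 7 leaf markers summed to 473000 to 499500 in wild type and 456900 to 460300 in bdt1, with 3 positive (median -0.11). LHCA1, at 16200 and 14500 against 12000 and 11700, was called lower (limma adjusted p = 0.028). With edgeR too, 1 leaf marker was called lower. Of all tested genes limma called 0.856% lower.

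Enzymes of the cell wall and of sugar transfer numbered 11 and oxidoreductases 9. CSLG2, related to cellulose synthases, had 5 and 3 reads in wild type and 27 and 18 in bdt1. UGT78D3, which adds a sugar to flavonols, had 0 and 8 against 17 and 26, so 1 wild-type library held all of its wild-type reads. AT5G09700 had 5 and 0 against 13 and 26, and the fucosyltransferase gene FUT8 had 1 and 1 against 9 and 21. The flavin-binding monooxygenase gene AT1G63370 had 3 and 6 against 28 and 17. It overlaps AT1G63380 on the other strand, with means of 17.9 in wild type and 46.3 in bdt1. HSD6, a hydroxysteroid dehydrogenase gene, had 2 and 1 against 12 and 31, and ENODL3 had 3 and 1 against 22 and 17. SKS2 had 2 and 3 against 16 and 13. NCED2, of the enzyme family that commits carotenoids to abscisic acid, had 1 and 1 against 5 and 9.

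The F-box class had 9 members. After AT3G47030, AT1G64540 had 5 and 5 reads in wild type and 19 and 17 in bdt1, AT3G23955 had the 14 and 16 given above with none in wild type, and AT3G13680 had 4 and 5 against 12 and 16. Proteases and their inhibitors had 3 members. AT1G65200 had 5 and 2 against 11 and 14, and scpl33, a serine carboxypeptidase gene, had 0 and 1 against 5 and 10. Among the 40 members of no class was PHS1, known for the pairing of homologous chromosomes in meiosis, with 2 and 1 against 17 and 11 reads. It too is not named by the rule and was kept. AT5G53700, an RNA-binding protein gene, had 1 and 0 against 23 and 21, or 45.4-fold with an exact binomial 95% interval of 7.74 to 1840. Without AGL6 and PHS1 there were 171 members. Of the 20 members of unknown function, QWRF6 had 4 and 2 against 20 and 12.

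A single member, AT3G26855, was annotated as a transposable element product, a reverse transcriptase, with 1 and 2 reads in wild type and 7 and 10 in bdt1. Transposable element products were 0.578% of the members and 0.453% of the near-silent genes with a value above 0. Pseudogene loci, which include annotated transposon remnants, were a median of 1 among the 20 loci flanking a member and also a median of 1 for the other near-silent genes. At least 5 such loci flanked 11.6% of the members, 13.7% of the other near-silent genes and 8.05% of all genes.

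Non-coding RNAs gave 18 members, 10.4% of all, against 26.3% of the near-silent genes with a value above 0. After AT3G05945, the highest were AT4G31398 with 4 and 5 reads in wild type and 23 and 17 in bdt1, AT5G02605 with 3 and 3 against 16 and 12, and AT5G03875 with 6 and 3 against 14 and 13. Each of these 3 overlaps an expressed gene on the other strand. Reads of 150 bases are longer than the mature forms of 21 bases, so the counts of both microRNA members are not of mature miRNAs. Both loci overlap other annotated loci, MIR165a on the other strand and MIR841b on both strands, and the MIR165a locus has 111 bases, so the transcript behind these reads is uncertain. MIR841b had 0 and 3 reads in wild type and 6 and 6 in bdt1, and its precursor shares 96.2% identity over 212 bases with that of MIR841a. The mature miRNAs annotated in these loci by RefSeq (TAIR10.1) are shown with the seed, bases 2 to 8, in capitals, and no seed is shared between them.
ath-miR165a-3p: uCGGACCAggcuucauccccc
ath-miR165a-5p: gGAAUGUUgucuggaucgagg
ath-miR841b-5p: uACGAGCCacuggaaacugaa
The 3p form of miR165a is known to cut transcripts of the class III homeodomain leucine zipper genes that pattern leaves. All 5 of those genes, a list added after the values were seen, were lower in bdt1 (median -0.13 on the log2 scale). With limma or edgeR 0 passed (1 lower at an unadjusted p under 0.05 with each). Of all 23256 tested genes 50.7% had a positive change, and 1804 with limma and 1837 with edgeR were lower at that cut. An effect of miR165a on these genes was not tested.

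Members that overlap another annotated locus numbered 38, of which 33 overlap it on the other strand, and 15 overlap a locus with a wild-type mean of at least 100. Reads of such pairs cannot be told apart without strand, and 135 members overlap no other locus. A near-identical copy, at 95% identity or more over at least 150 bases, the read length, was found for 12 members. AT1G05240, a peroxidase gene, has AT1G05250 as a copy at 100% identity over 1760 bases, and AT1G24800 and AT5G28460 each have a copy at 100%. AT3G32920, AT1G63370 and AT5G09700, described above, have copies in RECA2 (96.7%), AT1G62620 (97.1%) and BXL3 (96.3%). The means of these copies in wild type and bdt1 were 270 and 239, 10.0 and 9.66, and 49.7 and 93.3. The counts of all 12 members with such a copy depend on how the authors placed shared reads and are uncertain.

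The members were spread over the genome. Chromosomes 1 to 5 held 48, 22, 36, 24 and 43 of them, or 27.7%, 12.7%, 20.8%, 13.9% and 24.9%, beside 26.9%, 17.2%, 19.8%, 14.8% and 21.3% of all near-silent genes. Adjacent members were rare. AT2G15029 and AT2G06355 were neighbours on chromosome 2, as were the non-coding RNAs AT3G60972 and AT3G09555 on chromosome 3. In all, 8 pairs of members lay within 10 loci of each other. AT4G05470 and AT4G05497 both encode RNI-like proteins, and AT5G49305 and IMPA-5, 365 bases apart, both encode importin alpha. IMPA-5 had 1 and 0 reads in wild type and 7 and 12 in bdt1.

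Whether genes next to members differed was tested, because the rule did not use their values. Of 340 nearest genes that were not members, 246 were tested, 7 were higher in bdt1 and 1 was lower (limma, adjusted p under 0.05). The shares were 2.85% and 0.407%, against 1.2% higher and 0.856% lower over all 23256 tested genes. A positive change was found for 56.9% of the neighbours and 50.4% of the tested genes that do not meet the thresholds. With either bdt1 library left out, limma called 0 neighbours (20 and 18 at an unadjusted p under 0.05) and 0 genes of all, and edgeR called 8 and 6 neighbours higher.

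SOC1, named AGL20 in the annotation, is a MADS-box gene that promotes flowering, and it lies 918 bases from AGL6. Its level was 297 and 352 in wild type and 701 and 661 in bdt1, and the log2 rise was 1.07 (SE 0.10, limma adjusted p = 0.0028). The cupin gene AT3G05950, 1380 bases from STP6, had 20.1 and 23.9 against 72.8 and 89.1 and rose by 1.83 (SE 0.27, limma adjusted p = 0.013). AT1G51270, which encodes a vesicle-associated protein and lies next to LPAT3, rose by 1.85 (SE 0.14, limma adjusted p = 0.00094), from 144 and 112 to 445 and 474. In these neighbours both bdt1 libraries were above both wild-type libraries.

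AT2G15042, a leucine-rich repeat gene beside AT2G06355, had 10.6 and 15.7 in wild type and 65.3 and 60.7 in bdt1 and rose by 2.2 (SE 0.32, limma adjusted p = 0.014). AT1G65190, a kinase gene beside AT1G65200, rose by 0.62 (SE 0.06, limma adjusted p = 0.0034), from 1270 and 1380 to 1990 and 2070. CSD2, a copper and zinc superoxide dismutase gene beside ATCHX8, rose by 0.69 (SE 0.13, limma adjusted p = 0.041), and its wild-type libraries, at 5920 and 4200, differed more than its bdt1 libraries, at 8330 and 7710. CSD2 was not called with DESeq2 (adjusted p = 0.19).

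AT4G32510, of a bicarbonate transporter family and 39 bases from KT5, had 42.4 and 53.4 against 95.1 and 128 and rose by 1.2 (SE 0.24, limma adjusted p = 0.045). That call was lost without either wild-type library (limma adjusted p = 0.12 and 0.071). The non-coding RNA AT3G29644, 8665 bases from AT3G05945, fell by 1.57 (log2; SE 0.22, limma adjusted p = 0.011), from 169 and 174 to 69.3 and 46.9. Without either wild-type library it was not called (limma adjusted p = 0.055 and 0.064).

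**Figure D4:**
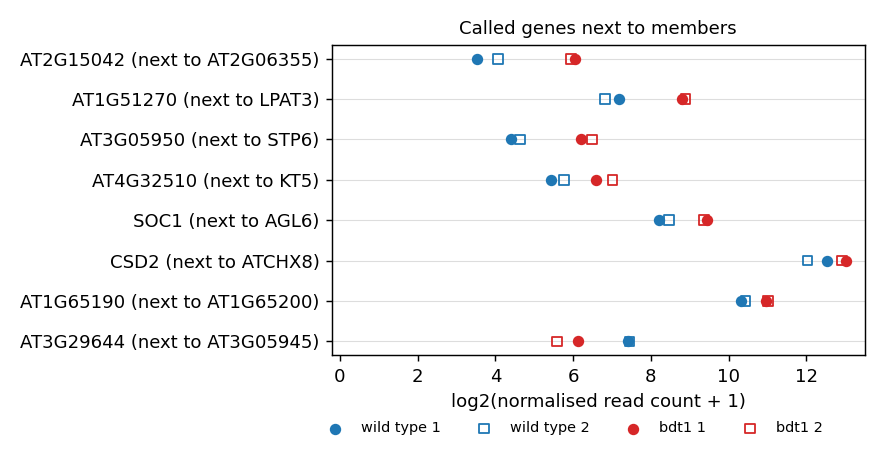
Level in each library of the 8 called genes next to a member, on the scale log2(normalised read count + 1), with the member in brackets. Circles are replicate 1 and squares replicate 2. All but AT3G29644 are higher in both bdt1 libraries, and SOC1 rose by 1.07 on the log2 scale.

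Of 42 listed genes of the silencing machinery, 2 passed the limma test, beside 280 higher and 199 lower of all 23256 tested genes. Of the 42, among them the Polycomb methyltransferases CLF and SWN, the DNA methyltransferases MET1 and CMT3 and the partners of BDT1, none was higher in bdt1 with limma or edgeR (0 at an unadjusted p under 0.05 with each). Lower at an unadjusted p under 0.05 were 7 with limma and 8 with edgeR, beside 1804 and 1837 of all 23256 tested genes. Of all tested genes, 2003 with limma and 1958 with edgeR were higher at that cut. Of the 42, 9 had a positive change. The median change of the 42 was -0.09 on the log2 scale, against 0.0017 for the tested genes that do not meet the thresholds. Lower calls went to AT4G11560, the gene tied to BDT1 itself, and to DDM1. DDM1, a chromatin remodeller needed for DNA methylation, had 758 and 704 in wild type and 540 and 559 in bdt1, and fell by 0.41 (SE 0.08, limma adjusted p = 0.041). It was not called with DESeq2 (adjusted p = 0.077) or when any one library was left out of the limma fit. CPL2 had 1190 and 1180 against 1230 and 1210.

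Of 11 reporter genes known to come on when DNA methylation or Polycomb silencing is lost, 0 were members. With 1.57% of the genes under the wild-type ceiling meeting the rule, nothing is read from that count, and STM and KNAT2, with wild-type means of 122 and 26.8, were above the ceiling. SDC and AGL23, which are known to be silenced by DNA methylation, and the stem cell gene WUS were at 0 in every library. FWA had levels of 5.24 and 1.77 in wild type and 3.16 and 2.93 in bdt1. ABI3, a master regulator of seed maturation, had 4.18 and 0.858 against 9.46 and 7.82, values that did not overlap and did not pass the test (limma adjusted p = 0.29). Of the 7 tested, limma and edgeR called 0, and 1 and 0 were at an unadjusted p under 0.05.

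The rule's counts were compared under other thresholds in both directions. With a mean under 2 in the low genotype, 89 genes were higher in bdt1 and 11 in wild type. With a mean under 10 the counts were 212 and 45, with both libraries of the high genotype at 10 or more 67 and 10, and with a 4-fold gap 74 and 4. The limma fit called 18 of the members and edgeR 17, 15 of them shared, beside 1.2% and 1.45% of all tested genes called higher. The rule used that contrast, so nothing is read from these counts.

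**Figure D5:**
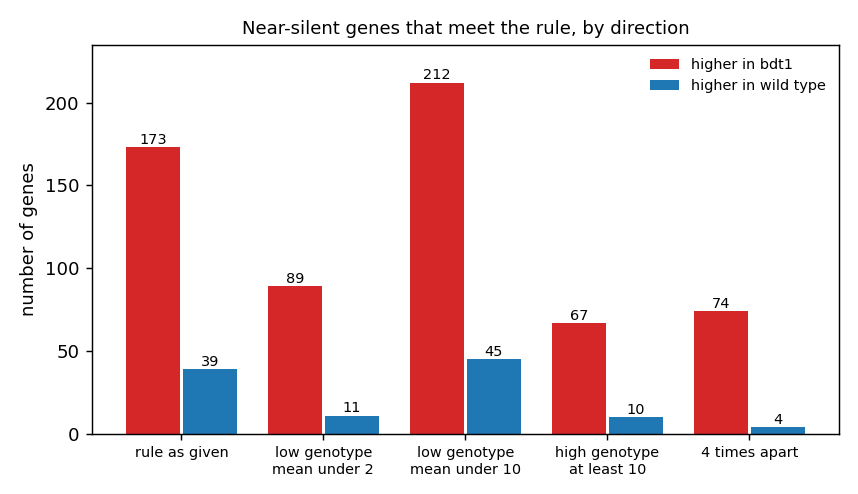
Number of near-silent genes that meet the rule in bdt1 (red) and with the genotypes exchanged (blue), for the rule as given and for 4 other thresholds. Genes left out by name are not counted in bdt1, and the bdt1 count is the higher at each threshold, from 173 against 39 to 74 against 4.

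Most like AT2G41470 over the 4 libraries, by Euclidean distance on log2(normalised read count + 1), were the members AT3G44006, AT5G49200 and AT3G47030 and the genes BGLU24 and AT5G39110, at distances from 1.9 to 2.21. BGLU24, a beta-glucosidase gene, had 2.1 and 0.89 in wild type and 29.6 and 39.2 in bdt1. AT5G39110, a cupin gene and one of those left out by name, had 1.11 and 5.59 against 57.0 and 72.5, and it lies beside the member GLP6. GLP6, a germin-like protein gene, had 0 and 2 reads in wild type and 6 and 10 in bdt1.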

How the data were processed

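The study compared RNA of 2 wild-type and 2 bdt1 seedling libraries (paired-end reads of 150 bases). Groups came from the sample titles. Per the submitters' processing notes, reads were handled with HISAT2 2.2.0 and edgeR on TAIR10. How reads were counted, on which gene models and with what strand setting is not given in the sources used here. For 32548 genes the deposited table gives a normalised signal. From the values, these are edgeR pseudo-counts, which the authors adjusted to a common library size: inverting that adjustment (dispersion 0.00544) gave whole reads for 100% of values within 0.01 reads, with totals from 22914893 to 27435729. They are not raw counts, so the test planned for normalised values was used.

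limma 3.58.1 (R 4.3.3) was fitted with a mean-variance trend to log2(value + 1) for 23256 genes with a mean of at least 1, with Benjamini-Hochberg adjustment over these genes and a threshold of 0.05. Such fold changes understate the change of low genes. Alternatives were edgeR 4.0.16 and DESeq2 1.42.0 on the recovered reads, other pseudocounts, filters, scalings, a replicate block and each library left out. The scripts were tested on simulated data. With 0 wild-type reads the floor was 3 reads over the group. Intervals are exact binomial at 95%. Wherever the wild type had 1 to 3 reads and a ratio is printed, its interval is too.

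The members and all lists were chosen with earlier results of these data known. Members named with full values are the 12 highest in bdt1, those without a wild-type read, the 3 nearest to each threshold and up to 4 of each annotation class. Other members are named as examples chosen after their values were seen. Of other genes, those named are called neighbours and silencing genes, the 3 just outside each threshold, the 5 highest of the exchanged rule and the 5 most like AT2G41470. Of the genes the rule leaves out, those in parentheses were taken as the full list. All 32548 identifiers matched RefSeq's TAIR10.1 annotation, which gave positions, products and symbols, and the table itself has no coordinates. Python 3.11.15 with pandas 2.3.3, numpy 2.4.6, scipy 1.17.1 and matplotlib 3.10.9 served the other steps.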

Additional observations from a re-analysis of the deposited data

How the results depend on the processing

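Low counts limit this set: the median member rests on 21 bdt1 reads, and a few reads decide membership near a threshold. With 1 library left out, the rule found 280 to 350 genes in bdt1 and 100 to 127 in wild type. Of the 173 members, 163 and 159 met it without wild-type replicate 1 or 2. All 173 met it without either bdt1 library, but the rule fixes this. Leaving out a bdt1 value can only loosen the rule, so nothing is read from that count. Other thresholds gave 89 and 11 genes (low genotype under 2), 67 and 10 (high genotype at least 10) and 74 and 4 (4-fold), for bdt1 and wild type. Leaving out members that overlap another locus left 135.

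Over all genes limma called 280 higher and 199 lower. Without the trend it called 42 and 6, with 0 neighbours in each direction (26 and 9 at an unadjusted p under 0.05), and with a pseudocount of 0.1 it called 123 lower. With each library left out, limma called 0 to 280 higher and 0 to 393 lower, 0 to 6 neighbours higher and 0 to 2 lower, and 0 to 1 silencing genes lower. Both bdt1 libraries gave 0 when left out, where 1558 and 1599 genes had an unadjusted p under 0.05. The lone library is then assumed to vary like the other genotype. edgeR, added after seeing the data, called 289, 300, 870 and 1225 genes higher and 225, 334, 1245 and 1273 lower without bdt1 replicate 1, bdt1 replicate 2, wild-type replicate 1 and wild-type replicate 2. Its neighbour calls were 8, 6, 15 and 17 higher and 2, 3, 12 and 11 lower. For the 8 called neighbours, AT4G11560, DDM1 and CRA1, no alternative run reversed a change. The replicate numbers share only a number (correlation of deviations 0.14 over 2 pairs), and a block on them called 901 higher and 917 lower, with 16 neighbours higher and 7 lower.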
